A study of Mus musculus with 9 samples.

Results

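The genes of the proteasome were followed in whole testes of WT mice and of 2 mouse lines with a changed *Kpna6* gene. Members were all protein-coding genes whose symbol begins with *Psm*, then a letter from a to g and a number, except *Psmb8* and *Psmb9*, which were left out. This gave 46 of the 32035 genes to which transcripts were assigned, of which 21743 are protein-coding. They were chosen by name, not by a measured value, though with earlier results of these data known. By subcomplex they were 8 alpha and 9 beta subunits of the 20S core, 6 ATPases and 11 other subunits of the 19S cap, 7 assembly chaperones, 4 activators and 1 inhibitor.

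RNA came from testes of male mice, 15 weeks old, 3 samples in each of 3 groups. WT mice were C57Bl6/N. Mice of the *Kpna6* ΔIBB/ΔIBB line lack exon 2 of *Kpna6*, which encodes the nuclear import adaptor Kpna6 (importin α7), and make a truncated protein without the importin β binding domain. Mice of the *Kpna6*-/- line carry a gene trap in intron 1. The paper reports that germ cells of these testes still make the full-length protein, whereas their Sertoli cells lack it. It attributes this to an alternative promoter downstream of the trap. The testes of this line are therefore not free of the protein. Both lines had been backcrossed to C57Bl6/N. The alleles are carried by every cell of the animal and the RNA is that of a whole organ, so a change in the number of cells of one type and a change of RNA per cell cannot be told apart in any value below. The labels do not tie each sample to a named animal, and the *P*-values measure the spread between these samples.

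The proteasome degrades proteins that carry ubiquitin chains. Its 20S core is a barrel of alpha rings around beta rings that hold the cutting sites, and the 19S cap recognises, unfolds and feeds in the substrate with its ring of ATPases. Activators of the PA28 family (*Psme1*, *Psme2*, *Psme3*) and PA200 (*Psme4*) can dock on the core in place of the cap. Interferon gamma induces the exchange of catalytic beta subunits for immunoproteasome subunits and the expression of *Psme1* and *Psme2*. Male germ cells are known for a variant of their own, the spermatoproteasome, in which *Psma8* takes the place of the alpha subunit *Psma7* and which binds PA200, and spermatids degrade histones while they compact their chromatin.

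Estimated counts on genes ranged from 24859751 to 31484692 a sample. *Kpna6* was at 98.3, 163 and 176 TPM (transcript abundance scaled by length and by the sample's total) in WT, at 32.0, 34.2 and 34.8 TPM in *Kpna6* ΔIBB/ΔIBB and at 134, 137 and 141 TPM in *Kpna6*-/- testes. It fell in *Kpna6* ΔIBB/ΔIBB testes (log2 fold change -1.79 ± 0.24 SE, adjusted *P* = 0.00615). The total for the gene does not check the *Kpna6*-/- label, since transcript Kpna6-201, which starts downstream of the trapped first exon, was at 119 to 126 TPM there. Kpna6-202, which starts upstream, was at 11.3 to 12.0 TPM in *Kpna6*-/- and at 16.9 to 23.4 TPM in WT samples. By RT-PCR, however, the paper found no transcript with the trapped first exon in *Kpna6*-/- testes. Kallisto divides reads shared by overlapping transcripts by estimation, so the level of Kpna6-202 does not show that this transcript is made there. WT replicate 1 stood apart from the other WT samples by its low *Kpna6* level, and results that rest on it are given with and without it. Of the marker lists, all 12 Sertoli cell genes rose in *Kpna6* ΔIBB/ΔIBB testes, with a summed level of 1367 to 1653 TPM against 857 to 935 TPM in WT, and 6 of 8 elongating spermatid genes fell, with 56330 to 64590 TPM against 67770 to 77840 TPM. Of the 6 round spermatid genes 5 fell, of 6 macrophage genes 2 rose, in the spermatogonium list and in the peritubular and endothelial list 2 of 6 rose and 1 fell each, and no gene of the 6 for Leydig cells and 6 for pachytene spermatocytes passed the test. Over all genes tested for *Kpna6* ΔIBB/ΔIBB against WT 37.1% passed, 17.9% higher and 19.1% lower. Lymphocyte genes summed to at most 4.28 TPM in any sample, and no list had a gene at 0 in all samples. The part of these shifts in the results below was not tested.

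In WT testes the mean levels of the 46 genes ran from 0.716 to 704 TPM with a median of 61.2 TPM, against a median of 1.23 TPM over all genes. *Psma6*, the alpha subunit α1, was the highest with 704 ± 20.6 TPM (SD, n = 3), and only 171 genes of the testis were higher. *Psmf1*, which encodes the proteasome inhibitor PI31, had 574 ± 12.3 TPM and the 19S ATPase *Psmc3* had 509 ± 13.6 TPM. The lowest were the thymus-type beta subunit *Psmb11* with 0.716 ± 0.125 TPM and the immunoproteasome subunit *Psmb10* with 4.20 ± 0.198 TPM. Together the members made up 5239 to 5388 TPM in WT, 5414 to 5493 TPM in *Kpna6* ΔIBB/ΔIBB and 5252 to 5329 TPM in *Kpna6*-/- testes. With limma on log2(TPM + 1) the median of all genes was itself 0.08 higher in *Kpna6* ΔIBB/ΔIBB than in WT. Whether the sum rose beyond this shift was not tested.

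Subunits that occur once per ring did not have equal messages. Among the alpha genes *Psma6* was 9.49 times the median of the subcomplex, and *Psma3* followed with 129 ± 9.16 TPM. The germ cell subunit *Psma8* had 98.3 ± 7.84 TPM in WT, about the level of *Psma4* with 96.9 ± 1.65 TPM, and the samples of this pair overlapped. *Psma2*, *Psma7*, *Psma5* and *Psma1* formed a lower series from 51.4 to 40.2 TPM in which each overlapped its neighbour. Of the beta genes that carry the cutting sites, *Psmb6* was highest with 278 ± 8.46 TPM, then *Psmb7* with 147 ± 2.43 TPM and *Psmb5* with 110 ± 6.41 TPM, the last overlapping the structural subunit *Psmb4* (112 ± 3.63 TPM). *Psmb1*, *Psmb3* and *Psmb2* were at 80.2, 75.5 and 57.1 TPM and did not overlap. In the ATPase ring *Psmc3* and *Psmc2* (272 ± 9.09 TPM) stood above *Psmc5*, *Psmc1*, *Psmc6* and *Psmc4*, which ran from 115 to 41.0 TPM, and only *Psmc6* and *Psmc4* overlapped.

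The other cap subunits ran from *Psmd8* with 246 ± 5.64 TPM and the scaffold subunit *Psmd2* with 208 ± 8.50 TPM, through the ubiquitin receptor *Psmd4* with 133 ± 7.29 TPM, to the deubiquitinase *Psmd14* with 31.3 ± 2.66 TPM. *Psmd7*, *Psmd13* and *Psmd11* overlapped in a row between 63.6 and 59.6 TPM, and the neighbours *Psmd6*, *Psmd12*, *Psmd1* and *Psmd3* were set apart at 84.6, 56.1, 41.4 and 40.0 TPM. Assembly chaperones, which build the core and the cap and leave the finished particle, ran from *Psmg2* with 46.4 ± 4.23 TPM to *Psmg3* with 7.78 ± 1.10 TPM. The activators split into a high and a low pair. *Psme3*, the nuclear activator PA28γ, had 198 ± 4.51 TPM and *Psme4* 163 ± 2.41 TPM, whereas *Psme2* and *Psme1*, the interferon-inducible pair, had 21.4 ± 4.47 and 12.2 ± 2.73 TPM.

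**Figure D1:**
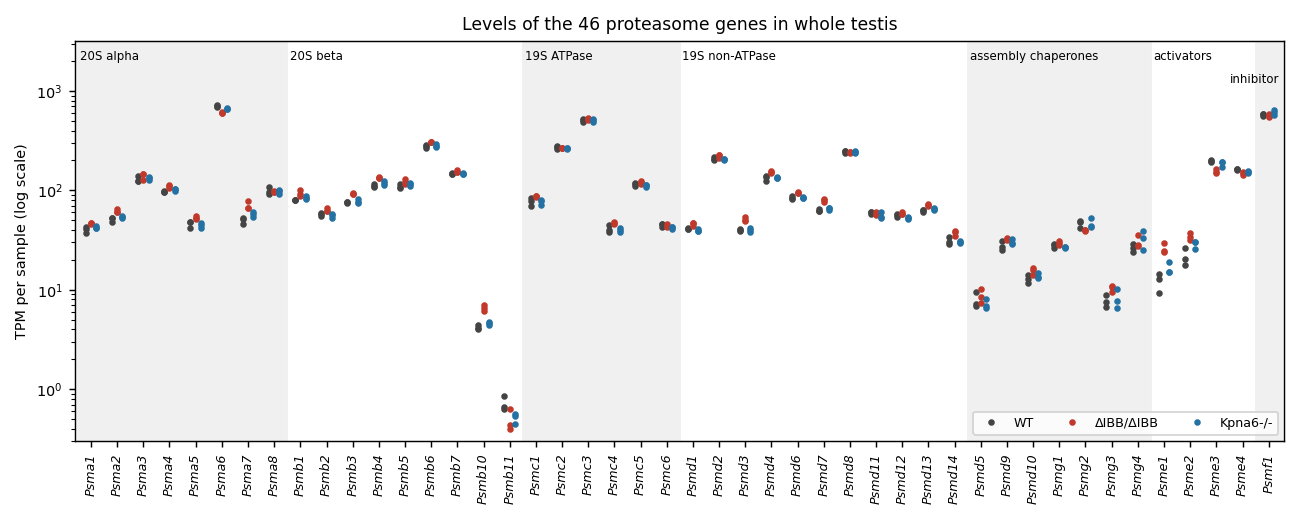
Level of each proteasome gene in TPM (log scale) for each of the 9 samples, grouped by subcomplex; WT points are grey, *Kpna6* ΔIBB/ΔIBB red and *Kpna6*-/- blue. *Psma6*, *Psmf1* and *Psmc3* stand at 489 TPM or more in every sample, and *Psmb11* stays below 1 TPM.

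Part of the level of some abundant genes came from transcripts not annotated as protein-coding. These include transcripts annotated for nonsense-mediated decay, such as Psma3-201 with 30.2 to 33.3 TPM in WT. The transcript Psmf1-205, annotated as a retained intron of 683 bases, was at 323 to 334 TPM in WT. Transcripts of all types other than protein-coding made up 58.2% of the *Psmf1* level, 63.0% of *Psma3*, 38.0% of *Psme3* and 21.3% of *Psmb6* in WT. Kallisto divides reads between overlapping transcripts by estimation, so these shares are estimates. *Psma8* and *Psmg2* have a single transcript in the files. Stretches of at least 100 bases are also near-identical between *Psmd11* and 101 other genes, *Psmd13* and *Sirt3*, and *Psmd9* and *Bpnt1*, so the split of reads between these genes is uncertain.

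For *Kpna6* ΔIBB/ΔIBB against WT all 46 members passed edgeR's filter on low counts, and 16 passed an adjusted *P*-value of 0.05, 8 higher and 8 lower. Over all 18797 genes tested 37.1% passed, 17.9% higher and 19.1% lower, so the members' share of 34.8%, with 17.4% in each direction, was close to that of all genes. Their median log2 fold change was 0.05 beside 0.01 for all genes, and 37 of 46 were within 0.25 of 0. In normalized CPM, which are counts divided by the TMM-adjusted library size, 12 members had all ΔIBB/ΔIBB samples above and 12 had all below those of WT, 26.1% each way, where 24.6% and 25.0% of all genes were. The split depended on the scaling. TMM factors were 1.04 to 1.05 in *Kpna6* ΔIBB/ΔIBB and 0.965 to 0.985 in the other samples, and scaling by library size only moved the median of all genes to 0.11 and the members' calls to 20 higher and 4 lower, of which 12 were among the 16. With limma on log2(TPM + 1) there were 15 higher and 3 lower. Over all genes 7798 of 18797 were called when scaled by library size only, and 4904 of 22480 with limma. Both shares were below those of the members, so their closeness also depended on the setting. *Psma6*, *Psme3*, *Psme4* and *Psmg2* were the 4 lower under library size, and the other 4 of the 8 lower members were not called there.

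Members that rose were led by the interferon-inducible activator pair. *Psme1*, PA28α, was at 10.0, 6.42 and 8.34 normalized CPM in WT, at 12.6, 10.3 and 10.6 in *Kpna6*-/- and at 18.2, 15.6 and 15.0 in *Kpna6* ΔIBB/ΔIBB testes. The lowest *Kpna6* ΔIBB/ΔIBB sample was above all samples of the other groups. The increase over WT was 1.97-fold (log2 0.98 ± 0.14 SE, adjusted *P* = 0.000235). *Psme2*, PA28β, was at 10.5, 7.94 and 9.50 normalized CPM in WT and at 15.4, 14.3 and 12.5 in *Kpna6* ΔIBB/ΔIBB testes, again without overlap. It was 1.52-fold higher (log2 0.60 ± 0.12 SE, adjusted *P* = 0.00101). Both genes lie on chromosome 14 of GRCm38, *Psme1* from 55578123 to 55581529 on the plus strand and *Psme2* from 55587441 to 55591113 on the minus strand, with 5911 bases between them.

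*Psmb10*, the immunoproteasome subunit that replaces the trypsin-like subunit *Psmb7*, is on chromosome 8. It was at 3.47, 3.39 and 3.60 normalized CPM in WT, at 3.95, 3.70 and 3.92 in *Kpna6*-/- and at 5.32, 4.97 and 4.66 in *Kpna6* ΔIBB/ΔIBB testes. The 3 groups did not overlap, and the rise over WT was 1.43-fold (log2 0.52 ± 0.13 SE, adjusted *P* = 0.0073). *Psmb7* itself was at 108 to 109 normalized CPM in WT and 104 to 108 in *Kpna6* ΔIBB/ΔIBB (log2 -0.04 ± 0.04 SE, adjusted *P* = 0.529). *Psma7*, the alpha subunit of somatic proteasomes, was at 25.2, 23.7 and 26.2 normalized CPM in WT, at 28.8, 29.9 and 26.8 in *Kpna6*-/- and at 36.7, 32.3 and 31.2 in *Kpna6* ΔIBB/ΔIBB testes. Here too the 3 groups were apart, with a rise of 1.34-fold over WT (log2 0.42 ± 0.07 SE, adjusted *P* = 0.000493).

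The other 4 members that rose did so by 0.14 to 0.23 on the log2 scale. They were the cap subunits *Psmd3* (0.23) and *Psmd7* (0.20), the latter a partner of the deubiquitinase *Psmd14*, and the beta subunits *Psmb3* (0.16) and *Psmb4* (0.14). *Psmb3* lost its call when any one of 5 libraries was left out, all but WT replicate 1, with adjusted *P* = 0.0682 to 0.0887 in edgeR, and with DESeq2 (adjusted *P* = 0.09). *Psmb4* lost it without WT replicate 1 or 2 or *Kpna6* ΔIBB/ΔIBB replicate 1 or 2 (0.0598 to 0.105 in edgeR). *Psmd3* shares stretches of at least 100 bases at 95% identity or more with 34 other genes, and the sum with them was at -0.03 (adjusted *P* = 0.438 in edgeR). Those genes held 46714 mean counts beside 1945 for *Psmd3*, so the sum mostly describes them and does not test *Psmd3* itself.

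The promoters of the 4 members that rose most and of *Psme4* are printed from RefSeq (GRCm38.p6), each from 250 bases before to 50 bases after the annotated start, because these genes moved together or in opposite directions in the same testes. Of the 46 members 38 matched this table by symbol. Capitals mark matches, on either strand, to CCAAT (the CCAAT box), TGANNNNGC (the core of the antioxidant response element, bound by the proteasome regulator Nfe2l1 and its relatives), GAAANNGAA (the core of the interferon-stimulated response element) or TTCNNNGAA (the gamma-activated site), the last pair of which was added after the values were seen.
Psme1, chr14:55578244-55578543, plus strand: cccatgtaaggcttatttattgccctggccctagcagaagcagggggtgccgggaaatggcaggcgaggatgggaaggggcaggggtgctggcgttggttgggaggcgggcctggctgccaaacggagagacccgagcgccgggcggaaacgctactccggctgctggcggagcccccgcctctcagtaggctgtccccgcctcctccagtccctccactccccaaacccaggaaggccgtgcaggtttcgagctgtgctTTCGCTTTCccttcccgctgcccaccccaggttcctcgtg
Psme2, chr14:55591052-55591351, minus strand: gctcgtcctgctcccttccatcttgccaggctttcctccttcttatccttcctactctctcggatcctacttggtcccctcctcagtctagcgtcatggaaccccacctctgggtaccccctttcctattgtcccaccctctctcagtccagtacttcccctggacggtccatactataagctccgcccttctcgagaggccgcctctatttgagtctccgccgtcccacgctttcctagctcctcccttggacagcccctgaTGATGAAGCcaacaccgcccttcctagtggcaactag
Psmb10, chr8:105938343-105938642, minus strand: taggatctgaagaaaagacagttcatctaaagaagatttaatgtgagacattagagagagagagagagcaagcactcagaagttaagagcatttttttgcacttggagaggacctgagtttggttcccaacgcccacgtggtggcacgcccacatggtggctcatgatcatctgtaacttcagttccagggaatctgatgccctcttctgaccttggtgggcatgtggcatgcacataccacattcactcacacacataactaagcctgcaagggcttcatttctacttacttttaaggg
Psma7, chr2:180042415-180042714, minus strand: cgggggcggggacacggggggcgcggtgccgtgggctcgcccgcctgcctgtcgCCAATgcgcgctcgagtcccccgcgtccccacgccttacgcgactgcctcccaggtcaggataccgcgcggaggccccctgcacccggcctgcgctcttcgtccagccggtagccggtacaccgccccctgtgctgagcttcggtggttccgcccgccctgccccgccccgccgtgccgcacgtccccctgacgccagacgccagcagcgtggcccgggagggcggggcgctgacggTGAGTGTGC
Psme4, chr11:30771525-30771824, plus strand: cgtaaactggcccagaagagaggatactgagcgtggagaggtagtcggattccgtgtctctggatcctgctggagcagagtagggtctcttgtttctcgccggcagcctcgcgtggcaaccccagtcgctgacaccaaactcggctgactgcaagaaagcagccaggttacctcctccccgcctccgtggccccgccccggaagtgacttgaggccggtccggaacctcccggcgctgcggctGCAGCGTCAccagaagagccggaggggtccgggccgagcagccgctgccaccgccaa
GAAANNGAA was found in the *Psme1* window, as TTCNNTTTC on the other strand 10 bases after the start, and not in those of *Psme2* and *Psmb10*. TGANNNNGC was found in the windows of *Psme2*, *Psma7* and *Psme4*, and CCAAT in that of *Psma7*. In the *Psmb10* window none of the 4 was found. Over all 32851 windows of the same length CCAAT was present in 37.4%, TGANNNNGC in 41.3%, GAAANNGAA in 8.56% and TTCNNNGAA in 8.3%. Over the 41 windows of the members the shares were 31.7%, 56.1%, 17.1% and 4.88%. A match of such short letters describes the sequence and does not show that a factor binds there.

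Among the members that fell, the 20S subunit *Psma6* had the smallest *P*-value. It was at 374, 360 and 340 normalized CPM in WT, at 331, 346 and 334 in *Kpna6*-/- and at 280, 280 and 282 in *Kpna6* ΔIBB/ΔIBB testes. The *Kpna6* ΔIBB/ΔIBB samples lay close together below all others, at 0.786 of WT (log2 -0.35 ± 0.04 SE, adjusted *P* = 1.61e-05). The chaperone *Psmg2*, which pairs with *Psmg1* to assemble the alpha ring, was at 27.4, 31.8 and 31.9 normalized CPM in WT and at 23.9, 23.5 and 24.2 in *Kpna6* ΔIBB/ΔIBB testes. It fell to 0.79 of WT without overlap (log2 -0.34 ± 0.07 SE, adjusted *P* = 0.00195), while its partner *Psmg1* was at -0.04 ± 0.08 SE (adjusted *P* = 0.75). With limma on log2(TPM + 1) *Psmg2* was not called (adjusted *P* = 0.088).

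*Psme4*, the activator PA200 of the spermatoproteasome, was at 791, 795 and 773 normalized CPM in WT, at 731, 741 and 748 in *Kpna6*-/- and at 631, 666 and 668 in *Kpna6* ΔIBB/ΔIBB testes. These 3 groups did not overlap, and the level in *Kpna6* ΔIBB/ΔIBB was 0.836 of WT (log2 -0.26 ± 0.04 SE, adjusted *P* = 6.27e-05). *Psme3* was at 128, 127 and 130 normalized CPM in WT and at 112, 109 and 107 in *Kpna6* ΔIBB/ΔIBB testes, 0.857 of WT (log2 -0.22 ± 0.04 SE, adjusted *P* = 0.000945). Within the 4 activators the interferon-inducible pair rose and the pair with the higher levels in testis fell.

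*Psma8* had 110, 115 and 124 normalized CPM in WT, 109, 119 and 119 in *Kpna6*-/- and 105, 105 and 109 in *Kpna6* ΔIBB/ΔIBB testes. The *Kpna6* ΔIBB/ΔIBB samples were below those of WT, yet the difference missed the threshold (log2 -0.13 ± 0.05 SE, adjusted *P* = 0.0683). It passed in edgeR without WT replicate 1 (log2 -0.17, adjusted *P* = 0.0251), with the replicate number as a block (adjusted *P* = 0.0399) and with all 9 samples in 1 fit (adjusted *P* = 0.0478). In TPM the groups overlapped, with 92.1, 95.5 and 107 in WT and 97.2, 97.2 and 99.7 in *Kpna6* ΔIBB/ΔIBB.

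The remaining members that fell were *Psmb11*, *Psmc2*, *Psmd8* and *Psmf1*. *Psmb11* was at 2.13, 2.21 and 2.80 normalized CPM in WT, at 1.88, 1.79 and 1.52 in *Kpna6*-/- and at 1.23, 1.89 and 1.35 in *Kpna6* ΔIBB/ΔIBB testes. The WT samples were above all others, and this was the largest decrease (log2 -0.66 ± 0.22 SE, adjusted *P* = 0.0296) on a mean of 54.4 counts a sample. It shares stretches with 22 other genes and lost its call without WT replicate 3 or *Kpna6* ΔIBB/ΔIBB replicate 1 or 3 (adjusted *P* = 0.0809 to 0.128 in edgeR) with DESeq2 (0.0777), when scaled by library size only (0.0556) and with limma on log2(TPM + 1) (0.231). *Psmc2*, *Psmd8* and *Psmf1* fell by 0.16 each, and this was no longer called when libraries were scaled by size only (adjusted *P* = 0.14 to 0.167 in edgeR). With limma on log2(TPM + 1) they were at -0.04, -0.03 and -0.03 (adjusted *P* = 0.506, 0.572 and 0.639). *Psmf1* was at 355, 367 and 362 normalized CPM in WT, at 400, 381 and 368 in *Kpna6*-/- and at 328, 321 and 319 in *Kpna6* ΔIBB/ΔIBB testes. *Psmf1* was the one member whose mutant groups lay on opposite sides of WT without overlap, though *Kpna6*-/- against WT did not pass (adjusted *P* = 0.343 in edgeR).

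By subcomplex 1 alpha gene rose and 1 fell, 3 beta genes rose and 1 fell, 1 ATPase fell, 2 other cap genes rose and 1 fell, 1 chaperone and the inhibitor fell, and of the 4 activators 2 rose and 2 fell. The 30 members not named as changed ranged from -0.14 for *Psmc6* to 0.32 for *Psmg3*. *Psmg3* was higher without overlap (4.97 to 5.79 against 3.90 to 4.82 normalized CPM), but the difference had an SE of 0.13 and an adjusted *P* of 0.0752. *Psmg3* was called without WT replicate 1 and when libraries were scaled by size only. The catalytic subunits *Psmb5*, *Psmb6* and *Psmb7* were at 0.04, 0.02 and -0.04, each with an SE of 0.04 to 0.06.

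**Figure D2:**
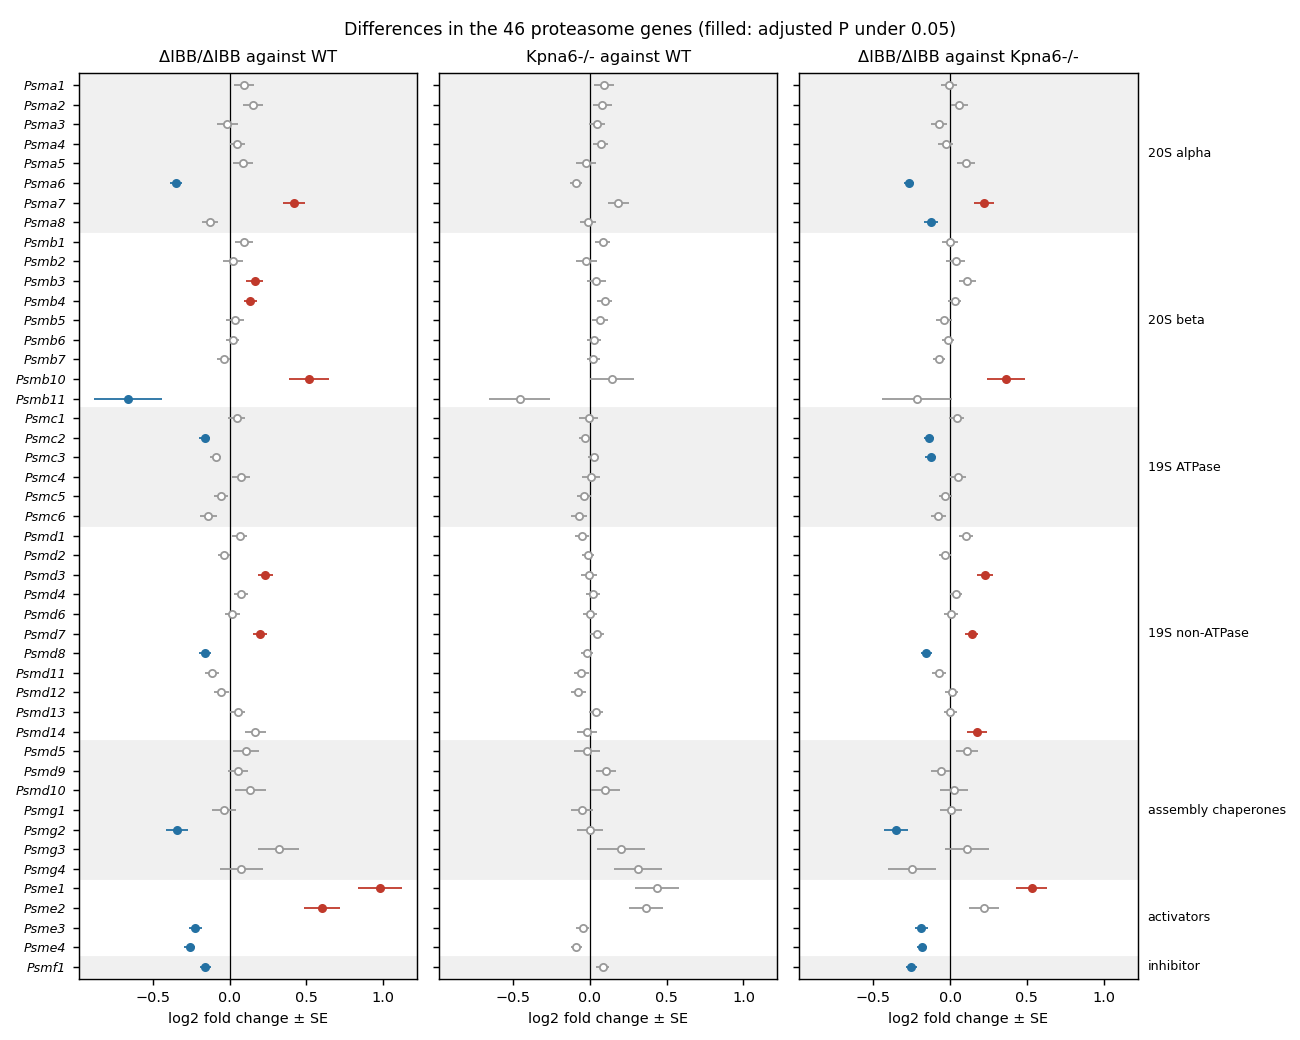
Log2 fold change ± SE from edgeR for each proteasome gene in the 3 comparisons; filled points passed an adjusted *P* of 0.05, red for higher and blue for lower. In *Kpna6* ΔIBB/ΔIBB against WT *Psme1* stands highest at 0.98, and in *Kpna6*-/- against WT every point is open.

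**Figure D3:**
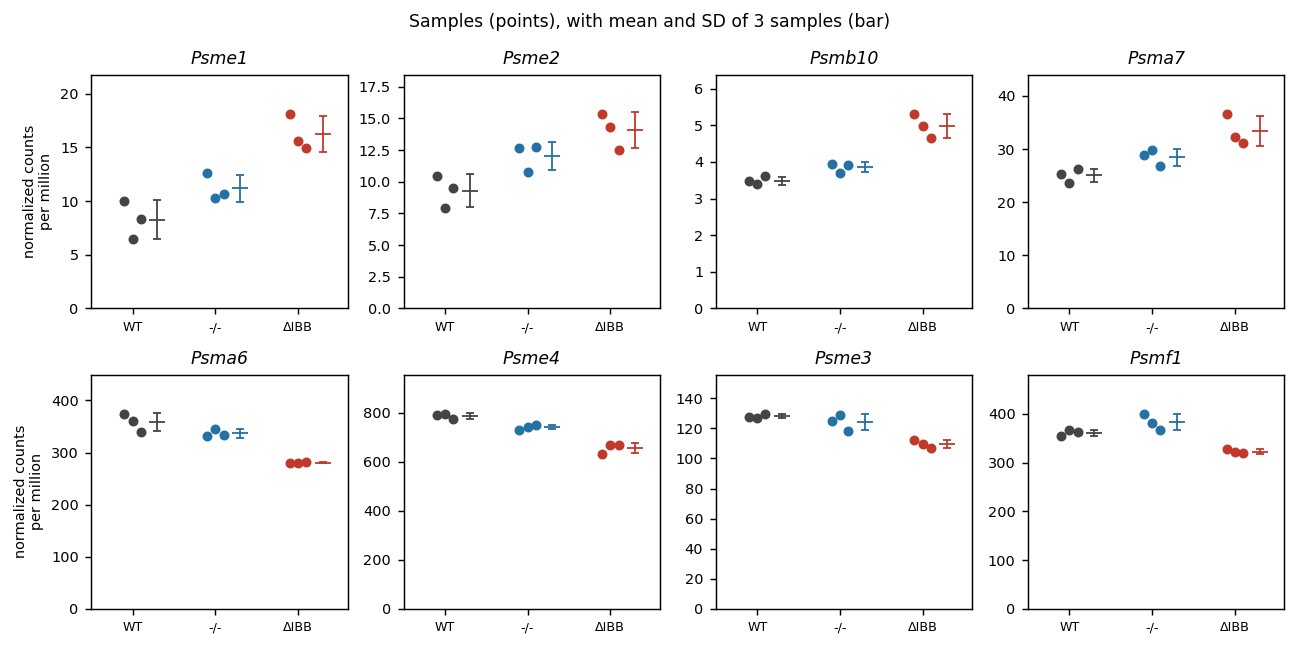
Normalized CPM in each sample (points) with the mean and SD of 3 samples (bars) for 8 members, on axes that start at 0. In the upper row the means of *Psme1*, *Psme2*, *Psmb10* and *Psma7* are lowest in WT and highest in *Kpna6* ΔIBB/ΔIBB testes, with 1 ΔIBB/ΔIBB sample of *Psme2* among those of *Kpna6*-/-, and in the lower row *Psma6*, *Psme4*, *Psme3* and *Psmf1* lie below the other groups in every *Kpna6* ΔIBB/ΔIBB sample.

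For *Kpna6*-/- against WT no member passed in edgeR, where 2.61% of 18681 genes did. DESeq2 and limma called 0 members as well. In normalized CPM 8 members were higher and 2 lower without overlap, 17.4% and 4.3% of members, where 10.1% and 9.78% of all genes were. The members' median log2 fold change was 0.02 beside 0.00 for all genes, and 42 of 46 were within 0.25 of 0. *Psme1* was 1.35-fold of WT without overlap (log2 0.44 ± 0.14 SE, adjusted *P* = 0.156) and *Psme2*, at 12.6, 10.7 and 12.7 normalized CPM, was 1.29-fold (log2 0.37 ± 0.11 SE, adjusted *P* = 0.0882). Both passed when WT replicate 1, the WT sample with the highest level of each, was left out (log2 0.60 and 0.47, adjusted *P* = 0.00713 and 0.0181 in edgeR). They also passed in edgeR with no filter on low counts (adjusted *P* = 0.00396 and 0.0149). *Psme1* passed with the replicate number as a block too (adjusted *P* = 0.0396 in edgeR). *Psma8* was at -0.01 ± 0.05 SE (adjusted *P* = 0.952), *Psme4* at -0.09 ± 0.04 SE (adjusted *P* = 0.225), *Psma7* at 0.19 ± 0.07 SE (adjusted *P* = 0.188) and *Psmb10* at 0.14 ± 0.14 SE (adjusted *P* = 0.714). The lowest member was *Psmb11* at -0.46 ± 0.20 SE (adjusted *P* = 0.283). Of the Sertoli cell genes 3 of 12 rose in these testes, with a sum of 1018 to 1095 TPM, and of the spermatid lists none passed.

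The comparison of the lines with each other tests the difference between their effects and shares its samples with both comparisons above. Of the 46 members 15 passed, 6 higher and 9 lower in *Kpna6* ΔIBB/ΔIBB, where 30.8% of 18752 genes passed, 13.8% higher and 17.0% lower. Scaled by library size only the members' calls were 16 higher and 4 lower, and with limma on log2(TPM + 1) 16 and 2. Over all genes 7023 of 18752 and 4312 of 22474 were called in these settings, smaller shares than among the members. Without *Kpna6* ΔIBB/ΔIBB replicate 1 only 9 members passed, 2 higher and 7 lower, where 4697 of 19034 genes did. *Psme1* was 1.45-fold higher in *Kpna6* ΔIBB/ΔIBB (log2 0.53 ± 0.10 SE, adjusted *P* = 0.000675), whereas *Psme2* did not pass (log2 0.22 ± 0.10 SE, adjusted *P* = 0.0994). It passed without *Kpna6* ΔIBB/ΔIBB replicate 3 (adjusted *P* = 0.0204 in edgeR).

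Of the members that passed, those with the largest decreases against *Kpna6*-/- were *Psmg2* (log2 -0.35 ± 0.08 SE, adjusted *P* = 0.00236), *Psma6* (-0.27 ± 0.03 SE, adjusted *P* = 1.66e-05), *Psmf1* (-0.25 ± 0.04 SE, adjusted *P* = 6.27e-05), *Psme3* (-0.19 ± 0.04 SE, adjusted *P* = 0.00293) and *Psme4* (-0.18 ± 0.03 SE, adjusted *P* = 0.000687). In *Kpna6*-/- testes *Psmg2* was at 30.4 ± 3.75 normalized CPM (SD, n = 3) and *Psme3* was at 125, 129 and 118, and for both genes all 3 samples were above those of *Kpna6* ΔIBB/ΔIBB. With limma on log2(TPM + 1) *Psmg2*, *Psmf1* and *Psme4* were not called (adjusted *P* = 0.143, 0.151 and 0.397). *Psmd8*, *Psmc2*, *Psmc3* and *Psma8* fell by 0.13 to 0.15, and these calls, with that of *Psme3*, were lost when libraries were scaled by size only (adjusted *P* = 0.121 to 0.689 in edgeR). That of *Psma8* (-0.13 ± 0.04 SE, adjusted *P* = 0.0428) was lost with DESeq2 (adjusted *P* = 0.0562), was at 0.02 with limma on log2(TPM + 1), and was lost without *Kpna6* ΔIBB/ΔIBB replicate 1 or 2 or *Kpna6*-/- replicate 2 or 3 (adjusted *P* = 0.117 to 0.171 in edgeR), and that of *Psmc3* without *Kpna6* ΔIBB/ΔIBB replicate 1 or *Kpna6*-/- replicate 3 (0.0574 and 0.0727).

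Besides *Psme1*, the members that rose were *Psmb10* (0.36 ± 0.12 SE, adjusted *P* = 0.0353), *Psmd3* (0.23 ± 0.05 SE, adjusted *P* = 0.0032), *Psma7* (0.22 ± 0.07 SE, adjusted *P* = 0.0189), *Psmd14* (0.18) and *Psmd7* (0.14). *Psmd3* was at 63.1, 64.2 and 61.6 normalized CPM in WT, at 66.4, 59.5 and 63.0 in *Kpna6*-/- and at 72.2, 77.7 and 71.4 in *Kpna6* ΔIBB/ΔIBB testes, above both other groups. Summed with its near-identical sequences it was at -0.03 between the lines (adjusted *P* = 0.554 in edgeR). That sum consists mostly of counts of 34 other genes. *Psmb10* and *Psmd14* each lost the call with DESeq2 (adjusted *P* = 0.142 and 0.0883). They also lost it in edgeR when any library but *Kpna6* ΔIBB/ΔIBB replicate 3 was left out, with an adjusted *P* = 0.0676 to 0.117 for *Psmb10* and an adjusted *P* = 0.0608 to 0.183 for *Psmd14*. *Psma7* and *Psmd7* lost it without *Kpna6* ΔIBB/ΔIBB replicate 1 or *Kpna6*-/- replicate 3 (adjusted *P* = 0.0748 to 0.103 in edgeR).

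The choice between alternative subunits was expressed as a share of the summed TPM. *Psma8* made up 63.5%, 67.5% and 67.3% of *Psma7* plus *Psma8* in WT, 60.4%, 63.1% and 64.8% in *Kpna6*-/- and 55.4%, 59.4% and 60.1% in *Kpna6* ΔIBB/ΔIBB testes. The mean share differed by -7.81 percentage points between *Kpna6* ΔIBB/ΔIBB and WT, and the groups did not overlap (two-sided exact permutation test, *P* = 0.1, adjusted over 3 pairs 0.15). With 3 samples against 3 the smallest *P* this test can give is 0.1. The *Psma8* level in TPM itself overlapped between the groups, whereas that of *Psma7* did not, with 46.1 to 53.0 TPM in WT and 66.2 to 78.2 TPM in *Kpna6* ΔIBB/ΔIBB. *Kpna6*-/- testes differed from WT by -3.33 points with overlap (exact *P* = 0.2, adjusted 0.2). *Psmb10* made up 2.76%, 2.71% and 2.87% of *Psmb7* plus *Psmb10* in WT, 3.14%, 2.92% and 2.99% in *Kpna6*-/- and 4.36%, 3.92% and 3.83% in *Kpna6* ΔIBB/ΔIBB testes. All 3 groups were apart, and each pair gave the smallest exact *P* of 0.1 (adjusted 0.1). *Psme4* made up 40.1% to 42.7% of the 4 activators in WT and 38.6% to 42.1% in *Kpna6* ΔIBB/ΔIBB testes, with a difference of -0.639 percentage points (exact permutation test, *P* = 0.7, adjusted 0.7). As a share of normalized counts the difference was -1.96 points (exact *P* = 0.1, the smallest this test can give). In TPM its sign turned without WT replicate 2 (0.0476) and without *Kpna6* ΔIBB/ΔIBB replicate 1 (0.427).

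On the TPM scale, transcripts of *Psme3* differed from WT in opposite directions. The longest, Psme3-201 of 2664 bases, was at 34.3, 34.8 and 36.6 TPM in WT and at 39.5, 40.1 and 38.3 TPM in *Kpna6* ΔIBB/ΔIBB testes, higher without overlap. Psme3-205, an annotated coding transcript of 653 bases, was at 80.4, 84.1 and 88.5 TPM in WT and at 61.1, 53.3 and 56.8 TPM in *Kpna6* ΔIBB/ΔIBB. Psme3-203, a processed transcript of 778 bases, was at 71.9, 65.0 and 68.6 TPM in WT against 53.8, 50.4 and 46.2 TPM. In *Kpna6*-/- testes the 3 transcripts were at 33.7 to 35.9, 69.3 to 84.7 and 60.4 to 72.0 TPM, overlapping WT. These transcript levels are estimates by kallisto and were not tested, and TPM values are not TMM-scaled. With limma on log2(TPM + 1) the median of all genes was itself 0.08 higher in *Kpna6* ΔIBB/ΔIBB than in WT. Whether Psme3-201 rose beyond this shift was not tested.

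**Figure D4:**
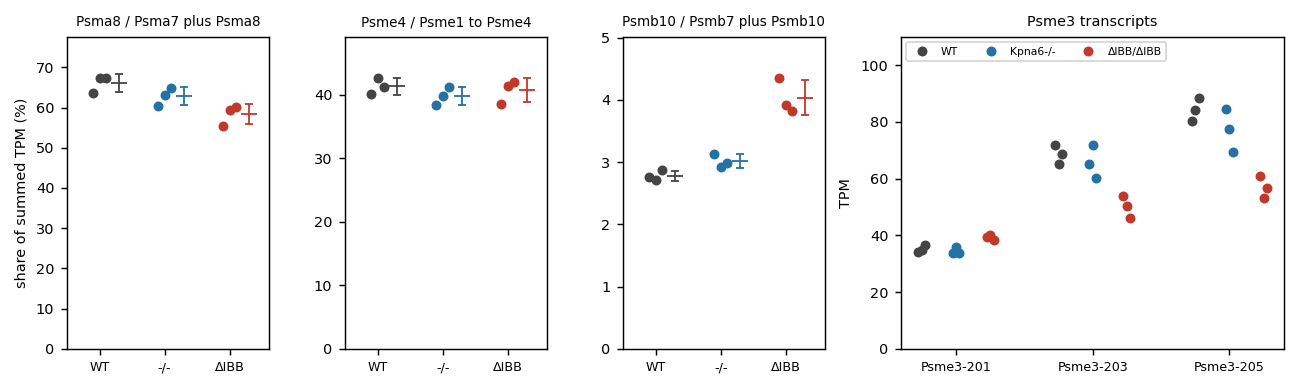
Share of summed TPM in percent for *Psma8*, *Psme4* and *Psmb10* in each sample, with the mean and SD of 3 samples, and at the right the level in TPM of 3 *Psme3* transcripts in each sample. The *Psma8* share is lowest and the *Psmb10* share highest in *Kpna6* ΔIBB/ΔIBB, and Psme3-205 and Psme3-203 are lower there while Psme3-201 is higher.

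Genes around the proteasome were read from 5 lists, put together with earlier results of these data known. Over all genes tested for *Kpna6* ΔIBB/ΔIBB against WT 37.1% passed, 17.9% higher and 19.1% lower. Of 17 genes for proteins that bind or build the proteasome 2 rose and 2 fell in *Kpna6* ΔIBB/ΔIBB against WT, with a median log2 fold change of 0.05. The shuttle receptors that carry ubiquitinated proteins to the cap divided. *Ubqln2* was at 18.7, 18.2 and 17.4 normalized CPM in WT and 25.0, 24.0 and 23.6 in *Kpna6* ΔIBB/ΔIBB (log2 0.42 ± 0.07 SE, adjusted *P* = 0.000303), and *Ubqln4* rose by 0.28 ± 0.07 SE (adjusted *P* = 0.00438). *Rad23b* was at 391, 399 and 385 normalized CPM in WT and 289, 292 and 294 in *Kpna6* ΔIBB/ΔIBB (log2 -0.42 ± 0.04 SE, adjusted *P* = 1.34e-06). The fourth was the ligase *Ube3c* (-0.16).

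Of 12 regulators of proteasome gene expression 5 rose and 1 fell, with a median of 0.15. *Nfe2l1* encodes the transcription factor that is known to raise proteasome genes when the particle is inhibited. It was at 92.6, 81.0 and 82.6 normalized CPM in WT and at 116, 110 and 105 in *Kpna6* ΔIBB/ΔIBB testes (log2 0.37 ± 0.06 SE, adjusted *P* = 0.000173). *Mafg*, a small Maf partner of this factor, rose by 0.48 ± 0.08 SE (adjusted *P* = 0.000272). *Ngly1*, whose enzyme removes the sugars of the Nfe2l1 protein, was at 323, 324 and 316 normalized CPM in WT and at 253, 255 and 258 in *Kpna6* ΔIBB/ΔIBB testes (log2 -0.33 ± 0.04 SE, adjusted *P* = 1.05e-05).

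Of 13 genes that supply ubiquitin and load it 1 rose and 4 fell, with a median of -0.07. The activating enzyme *Uba1* rose by 0.30 ± 0.04 SE (adjusted *P* = 9.13e-05), and the conjugating enzymes *Ube2b* and *Ube2j1* fell by 0.26 and 0.23 (adjusted *P* = 0.000563 and 0.000369 in edgeR). Of 11 ubiquitin factors known from spermatids none rose and 8 fell, with a median of -0.31. The ligase *Rnf148* was at 51.7, 53.8 and 63.8 normalized CPM in WT and at 39.0, 32.8 and 34.7 in *Kpna6* ΔIBB/ΔIBB (log2 -0.66 ± 0.09 SE, adjusted *P* = 0.000125). *Ubqlnl* and *Klhl10*, the latter a substrate adaptor of the ligase scaffold *Cul3*, fell by 0.58 and 0.49 (adjusted *P* = 1.07e-06 and 1.03e-06 in edgeR).

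Of 9 interferon and antigen processing genes 8 rose and 1 fell, with a median of 0.44. *Tap1*, part of the peptide transporter that takes up proteasome products, was at 1.69, 1.35 and 1.49 normalized CPM in WT, at 2.57, 2.73 and 1.85 in *Kpna6*-/- and at 4.10, 3.71 and 3.81 in *Kpna6* ΔIBB/ΔIBB testes (log2 1.36 ± 0.17 SE against WT, adjusted *P* = 3.38e-05). *Tap2* rose by 0.68 ± 0.18 SE (adjusted *P* = 0.00901), a call lost without *Kpna6* ΔIBB/ΔIBB replicate 2 (0.0559) and with limma on log2(TPM + 1) (0.0896). *Nlrc5*, an activator of MHC class I genes, went the other way, from 11.0, 8.50 and 8.81 normalized CPM in WT to 2.18, 1.92 and 2.20 in *Kpna6* ΔIBB/ΔIBB (log2 -2.16 ± 0.15 SE, adjusted *P* = 4.17e-07). Macrophage genes summed to 46.6 to 53.3 TPM in *Kpna6* ΔIBB/ΔIBB against 30.6 to 40.8 TPM in WT, and lymphocyte genes to 4.03 to 4.25 against 3.56 to 3.75 TPM. Their part, and that of the Sertoli cell genes, in the rise of *Psme1*, *Psme2*, *Psmb10* and these genes was not tested.

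In *Kpna6*-/- against WT 1 of the 17 partners passed, *Ublcp1*, a phosphatase that acts on the proteasome (0.51 ± 0.10 SE, adjusted *P* = 0.0245). Over all genes 2.61% passed there. *Ublcp1* lost its call without WT replicate 2 or any *Kpna6*-/- sample (adjusted *P* = 0.0926 to 0.137 in edgeR), and with limma on log2(TPM + 1) (0.185). Between the lines 1 partner rose and 3 fell, 5 regulators rose and 2 fell, 1 ubiquitin supply gene rose and 5 fell, 9 spermatid factors fell, and 4 interferon genes rose and 1 fell. Over all genes 13.8% rose and 17.0% fell between the lines. Among the largest differences by list were *Rad23b* (-0.36), *Ublcp1* (-0.30) and *Ubqln2* (0.26) among partners, *Maff* (0.61), *Mafg* (0.30) and *Ngly1* (-0.25) among regulators, *Ube2b* (-0.27) and *Ube2j1* (-0.25) in ubiquitin supply, *Ubqlnl* (-0.61) and *Rnf148* (-0.57) among spermatid factors, and *Nlrc5* (-1.88), *Tap1* (0.69) and *Ifngr2* (0.23) among interferon genes. All of these passed in edgeR after adjustment over all genes. *Ngly1* lost its call with limma on log2(TPM + 1) (-0.10, adjusted *P* = 0.0843). *Maff* lost it with limma (adjusted *P* = 0.0709), with DESeq2 (adjusted *P* = 0.051) and without 4 of the 6 libraries in turn, *Kpna6* ΔIBB/ΔIBB replicates 1 and 2 and *Kpna6*-/- replicates 2 and 3 (0.0537 to 0.117).

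**Figure D5:**
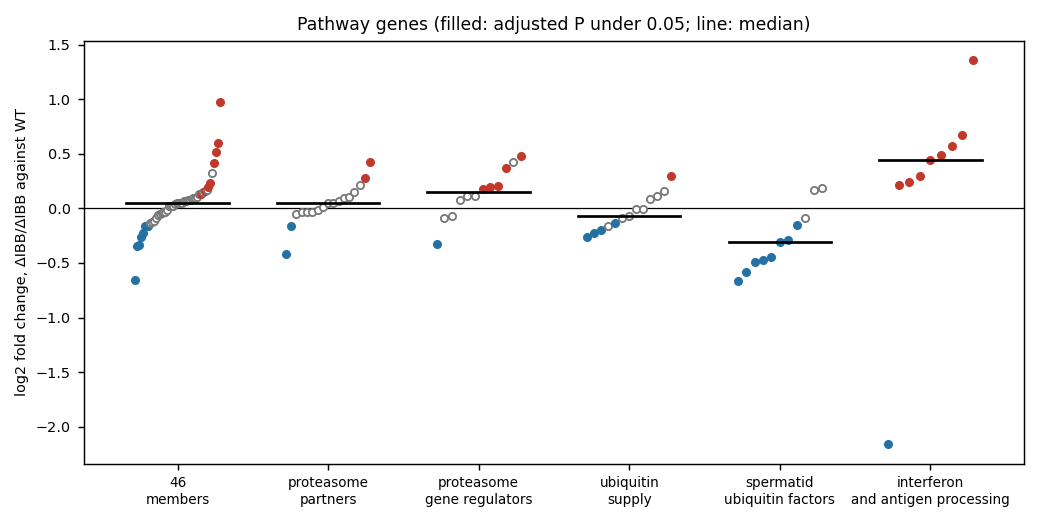
Log2 fold change of *Kpna6* ΔIBB/ΔIBB against WT for the 46 members and for the genes of 5 lists; filled points passed an adjusted *P* of 0.05 and the line is the median of the group. The medians are 0.05 for the members, -0.31 for spermatid ubiquitin factors and 0.44 for interferon and antigen processing genes.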

How the data were processed

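Poly(A) RNA of 9 whole testis samples was sequenced, and the 3 groups of 3 follow the sample labels. The authors quantified transcripts with kallisto (version 0.45 per the submitters' processing notes) on mm10; the transcript release is not given in the sources used here. They deposited estimated counts and TPM per transcript. TPM are relative to all RNA of a sample, so a shift in cell types moves them.

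Of 96626 transcripts 95301 matched the annotation, and both values were summed per gene, with counts then rounded. Each pair of groups was tested with edgeR 4.0.16 (R 4.3.3; filterByExpr, TMM, robust quasi-likelihood fit, two-sided, Benjamini-Hochberg adjustment over all genes tested, threshold 0.05), in place of the study's sleuth. Unless another tool is named, adjusted *P*-values and log2 fold changes are from this test. Normalized CPM are TMM-scaled. Shares were compared with two-sided exact permutation tests. Alternatives used DESeq2 1.42.0, limma 3.58.1 on log2(TPM + 1), other scaling, filter, block and sample choices, and sums over near-identical sequences, of which the sum restricted to longer matches was chosen after seeing the data. On data simulated with the same set spread between samples (dispersion) for all genes, edgeR recovered 100 of 100 genes changed 2-fold. It recovered 85 of 100 changed 1.5-fold, both for *Kpna6* ΔIBB/ΔIBB against WT (18797 genes).

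Members and lists were chosen with earlier results of these data known. Values were given in full for *Psma8*, *Psme4* and the 8 called members of largest change in a comparison, and for up to 3 called genes of each list; others were given as counts and ranges. *Paaf1* of the partner list was not matched. Some genes that this rule would name are not reported here.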

Additional observations from a re-analysis of the deposited data

Results flagged for a closer look

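*Psmf1*, the gene of the proteasome inhibitor PI31, drew attention because all 3 *Kpna6*-/- samples lay above and all 3 *Kpna6* ΔIBB/ΔIBB samples below the WT samples in normalized CPM. The direct comparison of the lines gave a log2 fold change of -0.251 (edgeR's quasi-likelihood test, Benjamini-Hochberg adjusted *P* = 6.27e-05). The gene was picked by the order of these same samples, which sets that direction, so this *P* is no separate support. *Kpna6*-/- against WT did not pass (log2 0.08 ± 0.04 SE, adjusted *P* = 0.343 in edgeR). The lowest *Kpna6*-/- sample was at 368.0 and the highest WT sample at 367.3 normalized CPM. In TPM the 3 groups overlapped, and limma on log2(TPM + 1) gave -0.11 (adjusted *P* = 0.151).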

How the results depend on the processing

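For *Kpna6* ΔIBB/ΔIBB against WT the number of members called stayed within 1.5 times of 16 under all alternatives, from 13 to 17 with 1 sample left out. For *Kpna6*-/- against WT it was 2 with no filter on low counts (*Psme1* and *Psme2*), 1 with the replicate block (*Psme1*), and 0 to 2 with 1 sample left out. Over all genes 930 of 26307 were called with no filter and 378 of 18681 with the block. Between the lines it was 9 to 17 with 1 sample left out. Scaling by library size only raised it to 24 and 20, as given above. Samples with the same number did not deviate together (r = -0.046 to 0.11). With the replicate block 18 members were called against WT and 16 between the lines. For single genes the direction turned, and the cause was not tested, with limma on log2(TPM + 1) between the lines for *Psma8* (0.019), *Psmc2* (0.006) and *Psmc3* (0.055). *Psmd3* summed with near-identical sequences was at -0.032 against WT and -0.026 between the lines, but that sum is mostly counts of 34 other genes. The *Psme4* share difference to WT ran from -1.33 to 0.427 with 1 sample left out, and was 0.0476 without WT replicate 2, and as a share of normalized counts it was -1.96, and -1.0 between the lines. With limma *Psmg2* was no longer called against WT (adjusted *P* = 0.088), nor *Psmg2*, *Psme4* and *Psmf1* between the lines (0.143, 0.397 and 0.151). Over the named genes and alternatives 26 calls of *Kpna6* ΔIBB/ΔIBB against WT were lost with the direction kept. Between the lines 41 were lost in this way, and 12 for *Kpna6*-/- against WT. In the same order 418, 387 and 95 results kept their call or lack of one. The results given above whose direction turned lost their call as well. In the simulation, where all genes had the same set spread, 1.5-fold changes were recovered for 71 to 85 of 100 genes. Changes smaller than this can be missed, though members passed against WT with log2 changes down to 0.14 in *Kpna6* ΔIBB/ΔIBB. The simulated recovery is therefore not that of the members.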
